A study of Homo sapiens with 15 samples.

Results

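The keratins KRT5, KRT7, KRT8, KRT14, KRT17, KRT18, KRT19 and KRT80 and the 14-3-3 protein gene SFN were followed through all groups of an expression array study of human ovarian cancer cells. Members were all probe sets carrying exactly 1 of these gene symbols in the platform annotation. That gave 14 probe sets for 8 of the 9 genes, out of 54613 probe sets and 19775 named genes in all. KRT17 had no probe set under its own symbol in the table used here and was not analysed.

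RNA of 5 groups was hybridised to Affymetrix arrays, with 3 biological replicates each and 15 arrays in all. In the first group, CP70 cells received decitabine at 0.1 µM for 48 h, with the drug replaced after 24 h. Over the last 24 h of that exposure they also received PXD101 at 0.1 µM. The second group received decitabine alone, likewise at 0.1 µM for 48 h with the drug replaced after 24 h, and the third PXD101 alone at 0.1 µM for 48 h. All treated cells were collected 96 h after the drugs were taken away. The fourth group was untreated CP70, a cisplatin-resistant cell line, and the fifth was untreated A2780, a cisplatin-sensitive line; CP70 is also written A2780/cp70 and is a derivative of A2780. Decitabine is a cytidine analogue that traps DNA methyltransferases, and PXD101 (belinostat) inhibits histone deacetylases. The exposure to PXD101 was shorter in the combined arm than with PXD101 alone. Each line was grown as a cell line culture, and CP70 is a single resistant derivative.

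Keratins are the intermediate filament proteins of epithelial cells, and each filament is built from a type I keratin paired with a type II keratin. KRT8 (type II) and KRT18 (type I) form the pair of simple epithelia, and KRT19, a small type I keratin, and KRT7, a type II keratin, join them in many ductal and glandular epithelia, among them that of the ovarian surface and its tumours. KRT5 and KRT14 are the pair of basal cells of stratified epithelia, KRT17 is a type I keratin of skin appendages and activated keratinocytes, and KRT80 is a type II keratin. SFN (stratifin, 14-3-3 sigma) is the epithelial member of the 14-3-3 family of phosphoprotein-binding adaptors, holds mitotic kinase complexes in the cytoplasm after DNA damage, and binds keratins, among them KRT17. Its gene is a known site of CpG methylation in carcinomas.

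Of the 9 genes, only SFN, KRT5 and KRT8 had a promoter window in the RefSeq table (GRCh38.p14), and these 3 are shown. SFN and KRT8 rose with decitabine while KRT5 was not called, and the part of CG sites in this was not tested. Each window runs from 250 bases before to 50 bases after the annotated start, 5′ to 3′ on the strand of the gene, with every CG in capitals. The windows are chr1:26862899-26863198 on the plus strand for SFN, chr12:52520345-52520644 on the minus strand for KRT5 and chr12:52926420-52926719 on the minus strand for KRT8, where the window lies inside the annotated span of the gene.
SFN: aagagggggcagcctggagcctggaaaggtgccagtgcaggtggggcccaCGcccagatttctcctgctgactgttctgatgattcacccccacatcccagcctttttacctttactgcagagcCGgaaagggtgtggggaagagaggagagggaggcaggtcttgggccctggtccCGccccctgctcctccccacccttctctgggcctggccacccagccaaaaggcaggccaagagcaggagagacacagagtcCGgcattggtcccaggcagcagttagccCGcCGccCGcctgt
KRT5: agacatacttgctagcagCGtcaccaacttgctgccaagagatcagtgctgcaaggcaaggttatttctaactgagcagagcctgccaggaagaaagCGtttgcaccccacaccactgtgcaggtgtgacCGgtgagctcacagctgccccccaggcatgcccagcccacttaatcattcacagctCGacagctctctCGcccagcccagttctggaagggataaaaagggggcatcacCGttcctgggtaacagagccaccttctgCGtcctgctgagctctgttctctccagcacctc
KRT8: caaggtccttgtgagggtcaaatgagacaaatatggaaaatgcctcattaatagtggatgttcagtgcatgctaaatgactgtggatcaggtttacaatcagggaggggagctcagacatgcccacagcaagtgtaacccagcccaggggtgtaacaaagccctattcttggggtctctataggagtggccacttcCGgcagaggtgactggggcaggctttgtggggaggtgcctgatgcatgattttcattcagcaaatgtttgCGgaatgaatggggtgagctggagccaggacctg
The SFN window held 7 CG sites with 63.7% G and C, the KRT5 window 7 with 56.3%, and the KRT8 window 2 with 50.7%. Over 35116 RefSeq promoters the median was 14 CG sites, and 36.8% of promoters had fewer than 7 and 11% fewer than 2. Searched on both strands, GGGCGG (present in 45.0% of promoters) matched 2 times in SFN, on the minus strand, and in neither keratin window. TGANTCA (7.71% of promoters) matched 1 site in SFN, counted once because the pattern is its own reverse complement, and TATAAA (11.5%) was in none of the 3 windows. Neither methylation nor factor binding was measured here.

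Array medians lay between 5.00 and 5.06 log2, and the median probe set averaged 5.055 log2 over the 15 arrays. Replicate 2 of untreated CP70 stood apart: across probe sets it correlated at 0.995 with the PXD101 arrays and at 0.984 to 0.986 with the other CP70 arrays, which correlated at 0.997 with each other. Counts over the members and gene lists that rest on untreated CP70 are therefore also given without it. That fit called more probe sets: 8.3% higher and 7.47% lower with decitabine, and 9.42% and 7.45% with both drugs. For PXD101 the shares were 11.3% and 8.83%, and between the lines 13.8% and 15.4%. With all arrays they were 2.91% and 2.65%, 3.95% and 3.07%, 3% and 2.92%, and 11.5% and 12.5%, in the same order. Counts over the members or a gene list are to be read against the shares of their fit. The 3′ actin probe set exceeded the 5′ one by 0.424 to 0.491 log2 with both drugs, 0.342 to 0.787 with decitabine, 0.384 to 0.508 with PXD101, 0.629 to 0.859 in untreated CP70 and 0.337 to 0.377 in A2780, so this sign of RNA integrity moved with the contrasts of untreated CP70, and its part in them was not tested. As to the label, EPCAM, an epithelial adhesion molecule, lay at 6.02 to 8.21 log2 over all arrays, whereas CDH1 (E-cadherin) stayed at 3.41 to 3.84. VIM (vimentin) lay at 14.19 to 14.35. Of 5 ovarian cancer and mullerian markers (PAX8, WT1, MUC16, MSLN, SOX17), 4 were below the median probe set in untreated CP70 and 4 in A2780.

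After decitabine, KRT19, KRT8, KRT18 and SFN all rose in CP70, while KRT5, KRT7, KRT14 and KRT80 did not pass the test. The fitted rises ran from 0.96 log2 for KRT18 to 4.37 log2 for a probe set of SFN. PXD101 alone gave a called rise in KRT19 and in 1 probe set of SFN, and no member was called between both drugs and decitabine. Each change is given in log2 units with its SE, from limma fitted to all 15 arrays, and counts as called where its p, adjusted by Benjamini-Hochberg over 54613 probe sets, was under 0.05. In bulk RNA, a change in the number of cells with a transcript and a change in transcript per cell cannot be told apart.

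**Figure D1:**
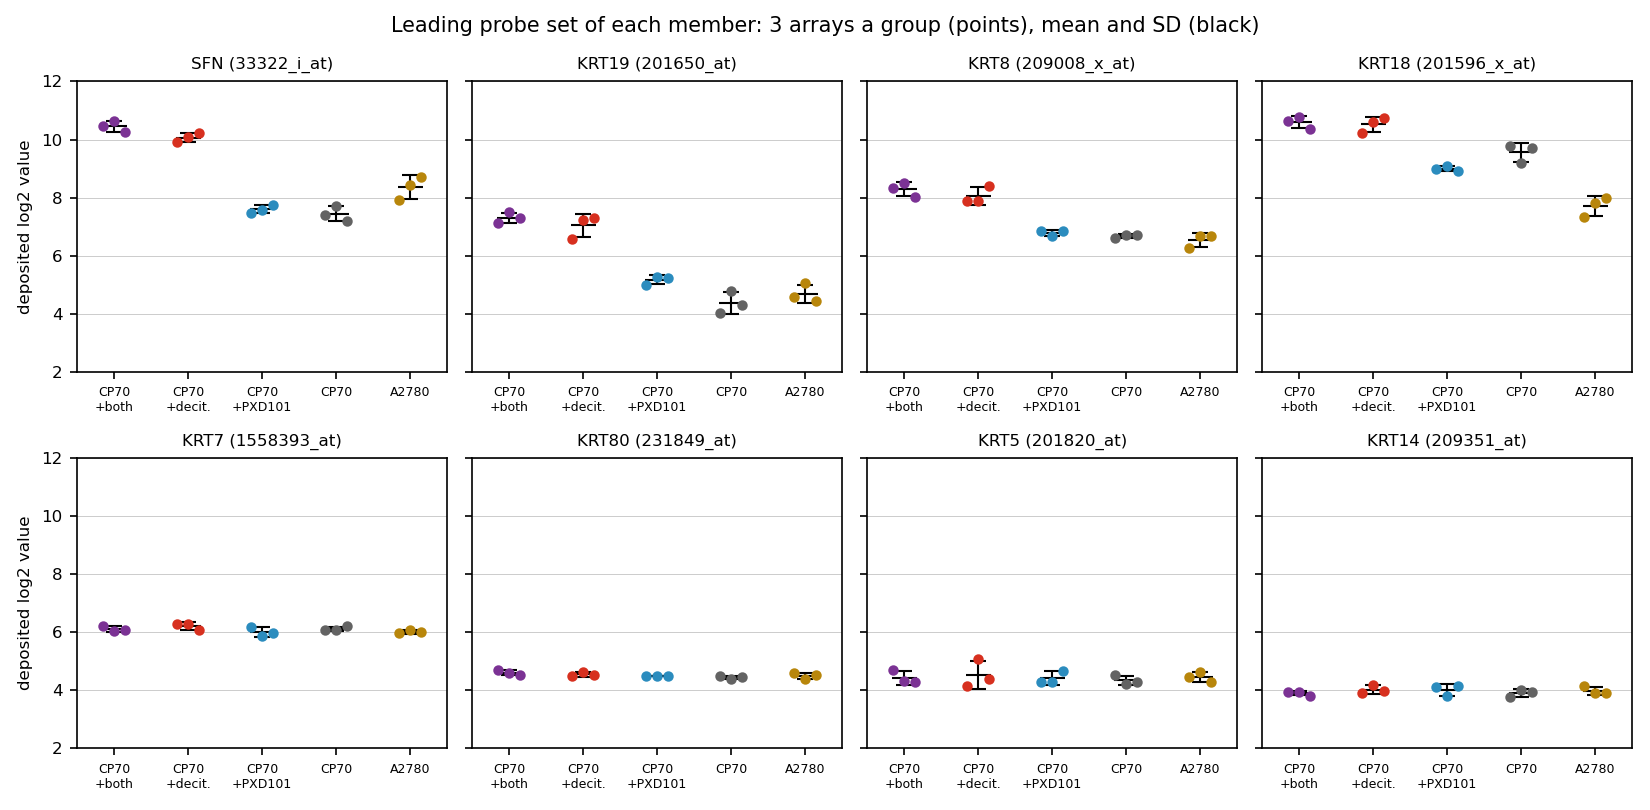
Deposited log2 value of the probe set with the highest mean of each member gene on every array (points), with the mean and SD of 3 arrays (black), for CP70 with both drugs, with decitabine and with PXD101, untreated CP70 and A2780. SFN, KRT19, KRT8 and KRT18 sit higher in both decitabine-containing groups than in the other 3 groups, and KRT7, KRT80, KRT5 and KRT14 form level rows.

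KRT19 changed by more log2 units with decitabine than any other keratin measured here. Its probe set 201650_at read 7.14, 7.49 and 7.29 log2 with both drugs, 6.59, 7.22 and 7.30 with decitabine, 5.00, 5.27 and 5.23 with PXD101, 4.04, 4.77 and 4.30 in untreated CP70 and 4.56, 5.05 and 4.45 in A2780. The 6 arrays given decitabine, with or without PXD101, all lay above the other 9. KRT19 rose by 2.67 ± 0.21 with decitabine over untreated CP70 (6.35-fold, limma adjusted p = 1.25e-06), the change of rank 76 from the top among all probe sets, and by 2.94 ± 0.21 with both drugs (7.66-fold, adjusted p = 3.31e-07). Its second probe set, 228491_at, stayed between 3.75 and 4.44 log2 on all arrays and changed by -0.31 ± 0.13 with decitabine (limma adjusted p = 0.203), so the 2 probe sets of KRT19 disagreed. By group mean, the order of 201650_at was both drugs (7.31), decitabine (7.04), PXD101 (5.17), A2780 (4.68) and untreated CP70 (4.37). Neighbouring groups overlapped in this order between both drugs and decitabine, PXD101 and A2780, and A2780 and untreated CP70.

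KRT8, the type II partner, moved in the same direction. Probe set 209008_x_at read 8.34, 8.51 and 8.01 log2 with both drugs, 7.88, 7.88 and 8.41 with decitabine, 6.85, 6.68 and 6.84 with PXD101, 6.61, 6.72 and 6.72 in untreated CP70 and 6.27, 6.68 and 6.68 in A2780. Again all 6 arrays given decitabine lay above all others, and the PXD101, CP70 and A2780 arrays overlapped. The rise was 1.37 ± 0.16 with decitabine (2.59-fold, limma adjusted p = 8.05e-05) and 1.60 ± 0.16 with both drugs (3.04-fold, adjusted p = 1.29e-05).

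KRT18, the type I partner of KRT8, rose with decitabine and differed between the lines as well. Probe set 201596_x_at read 10.65, 10.78 and 10.38 log2 with both drugs, 10.23, 10.59 and 10.74 with decitabine, 8.99, 9.09 and 8.92 with PXD101, 9.78, 9.19 and 9.70 in untreated CP70 and 7.34, 7.82 and 7.97 in A2780. The decitabine groups overlapped each other and lay above all other arrays, PXD101 lay just below untreated CP70, and A2780 was lowest. The rise was 0.96 ± 0.19 with decitabine (1.95-fold, limma adjusted p = 0.00643) and 1.05 ± 0.19 with both drugs (2.06-fold, adjusted p = 0.00275). KRT18 with decitabine was the probe set that rank product did not call (proportion of false positives 0.0553), and limma did not call it when fitted to only the arrays compared (0.96, adjusted p = 0.0724). KRT8 and KRT18 were each read by a single probe set of a class (_x_) whose probes can be shared with other sequences, and both genes have many processed pseudogenes, so their values are uncertain to that extent. The annotated spans of KRT8 (52897191 to 52949860) and KRT18 (52948855 to 52952906) overlap on chromosome 12 of GRCh38.p14. The probe sets named for the pseudogene KRT8P12 lay between 5.95 and 6.70 log2 (222060_at) and between 4.20 and 4.87 log2 (230116_at). Their means were 6.51 and 4.73 with decitabine, against 6.56 and 4.36 in untreated CP70. Without CP70 replicate 2, limma called 222060_at higher in CP70 than in A2780 (0.42 ± 0.13, adjusted p = 0.0195). It was called lower with PXD101 (-0.56 ± 0.13, adjusted p = 0.00442, limma). No pseudogene of KRT18 was examined.

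SFN was read by 3 probe sets, which agreed in direction after decitabine and differed in size. The 1 with the highest mean, 33322_i_at, read 10.48, 10.63 and 10.26 log2 with both drugs, 9.90, 10.08 and 10.22 with decitabine, 7.46, 7.58 and 7.75 with PXD101, 7.40, 7.72 and 7.21 in untreated CP70 and 7.91, 8.44 and 8.72 in A2780. Probe set 33323_r_at read 9.91, 10.03 and 9.64 with both drugs, 9.25, 9.41 and 9.96 with decitabine, 5.92, 6.31 and 6.52 with PXD101, 5.01, 5.54 and 4.95 in untreated CP70 and 6.82, 7.27 and 7.78 in A2780. Probe set 209260_at read 8.01, 8.22 and 7.44 with both drugs, 7.24, 6.99 and 7.76 with decitabine, 6.08, 5.71 and 5.68 with PXD101, 6.03, 5.76 and 5.85 in untreated CP70 and 6.12, 6.41 and 6.12 in A2780. In each of them the 6 arrays given decitabine lay above the other 9, and A2780 had the highest mean of the remaining groups. With decitabine, SFN rose by 4.37 ± 0.24 in 33323_r_at (20.7-fold, rank 32 from the top), by 2.62 ± 0.18 in 33322_i_at (6.17-fold, rank 81) and by 1.45 ± 0.20 in 209260_at (2.73-fold, rank 264), with limma adjusted p of 1.44e-08, 2.38e-07 and 0.000579. With both drugs the rises were 4.69 ± 0.24, 3.01 ± 0.18 and 2.00 ± 0.20 in the same order, with limma adjusted p of 5.65e-09, 3.77e-08 and 1.81e-05. The suffixes _i_ and _r_ mark probe sets with fewer probes or relaxed design rules, and 209260_at carries neither.

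**Figure D2:**
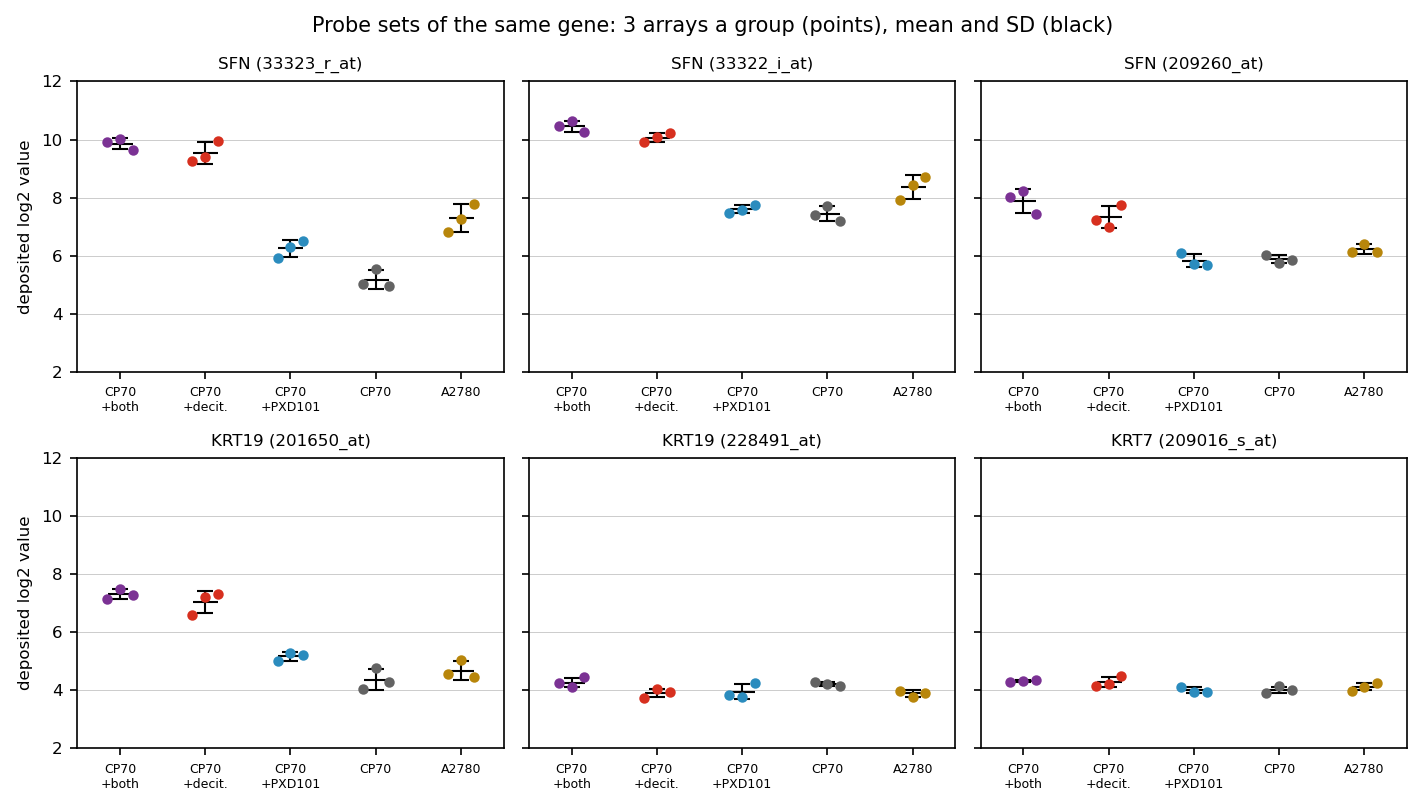
Deposited log2 value on every array (points) with the mean and SD of 3 arrays (black) for the 3 probe sets of SFN, both of KRT19 and 1 of KRT7, with the groups ordered as CP70 with both drugs, decitabine or PXD101, untreated CP70 and A2780. All SFN probe sets are higher in both decitabine groups by different amounts, and the second KRT19 probe set (228491_at) stays between 3.75 and 4.44.

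The remaining keratins lay low or level. The basal pair read 4.14 to 5.08 log2 (KRT5, 201820_at) and 3.76 to 4.19 (KRT14, 209351_at) over the 15 arrays. KRT80 (231849_at) read 4.38 to 4.70, and of the KRT7 probe sets, 1558393_at read 5.87 to 6.29, 209016_s_at 3.92 to 4.48, 214031_s_at 3.61 to 3.93 and 1558394_s_at 2.95 to 3.46. Over these 7 probe sets and 9 contrasts, 0 of 63 tests were called by limma and 5 had an unadjusted p under 0.05, and rank product called 0 in the contrasts it was run on. Apart from 1558393_at, their means over the 15 arrays lay below the median probe set. Those 5 tests were not spread over the 7 probe sets. KRT7 209016_s_at was higher over untreated CP70 with decitabine (0.26 ± 0.10) and with both drugs (0.30 ± 0.10). Over PXD101 it was higher as well, by 0.27 ± 0.10 and 0.32 ± 0.10. The other was KRT7 1558394_s_at, lower in CP70 than in A2780 (-0.23 ± 0.10). KRT7 209016_s_at, singled out after its values were seen, read 4.29, 4.33 and 4.36 with both drugs against 3.92 to 4.13 in untreated CP70, and was called higher in this contrast without CP70 replicate 2 (0.36 ± 0.11, limma adjusted p = 0.0402).

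Counted over the set, 6 of the 14 member probe sets, from 4 genes, were called higher with decitabine than in untreated CP70 and 0 lower, where 2.91% of all probe sets were called higher and 2.65% lower. At an unadjusted limma p under 0.05, 1 was lower (KRT19 228491_at), and rank product called 5 higher and 0 lower. With both drugs against untreated CP70 the same 6 were called higher and 0 lower by limma and by rank product (0 lower also at an unadjusted p), where 3.95% of all probe sets were called higher and 3.07% lower. The median change of the 14 was 0.23 with decitabine and 0.23 with both drugs, against 0.0008 and -0.0143 over all probe sets. Both contrasts share the untreated CP70 arrays. The members were chosen with earlier results of these data known, so these counts and medians describe the set and do not test it. Beside the members, the mean of 6 leukocyte markers per array lay at 4.77 to 4.88 log2 with both drugs and 4.82 to 4.85 with decitabine, against 4.58 to 4.64 in untreated CP70, with 1 of the 6 called (TYROBP), and that of 10 fibroblast and mesenchymal markers at 8.48 to 8.65 and 8.52 to 8.60, against 8.70 to 8.82. The part of either in the members' changes was not tested.

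Leaving out CP70 replicate 2 kept all 6 probe sets called with decitabine and with both drugs. With decitabine the changes were then 2.87 ± 0.21 for KRT19, 1.39 ± 0.18 for KRT8, 0.78 ± 0.18 for KRT18, and 4.56 ± 0.25, 2.76 ± 0.19 and 1.39 ± 0.23 for SFN (33323_r_at, 33322_i_at and 209260_at), with limma adjusted p between 1.28e-08 and 0.00689. With PXD101-treated CP70 as the comparison, the same 6 were called higher and 0 lower with both drugs (3.94% of all probe sets higher, 3.34% lower) and with decitabine (2.95% higher, 3.04% lower), with 0 lower also at an unadjusted limma p under 0.05 and by rank product. Decitabine minus PXD101 was 1.87 ± 0.21 for KRT19, 1.26 ± 0.16 for KRT8, 1.52 ± 0.19 for KRT18 and 2.47 ± 0.18 for SFN (33322_i_at). For both drugs minus PXD101 these were 2.14 ± 0.21, 1.5 ± 0.16, 1.60 ± 0.19 and 2.86 ± 0.18. Decitabine-treated CP70 also exceeded the parental A2780 in all 6 (6 higher and 0 lower, also 0 lower at an unadjusted limma p and by rank product, which called 5 higher), where 11.6% of all probe sets were called higher and 12.3% lower. The differences were 2.35 ± 0.21 for KRT19, 1.51 ± 0.16 for KRT8, 2.81 ± 0.19 for KRT18 and 1.71 ± 0.18 for SFN (33322_i_at).

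**Figure D3:**
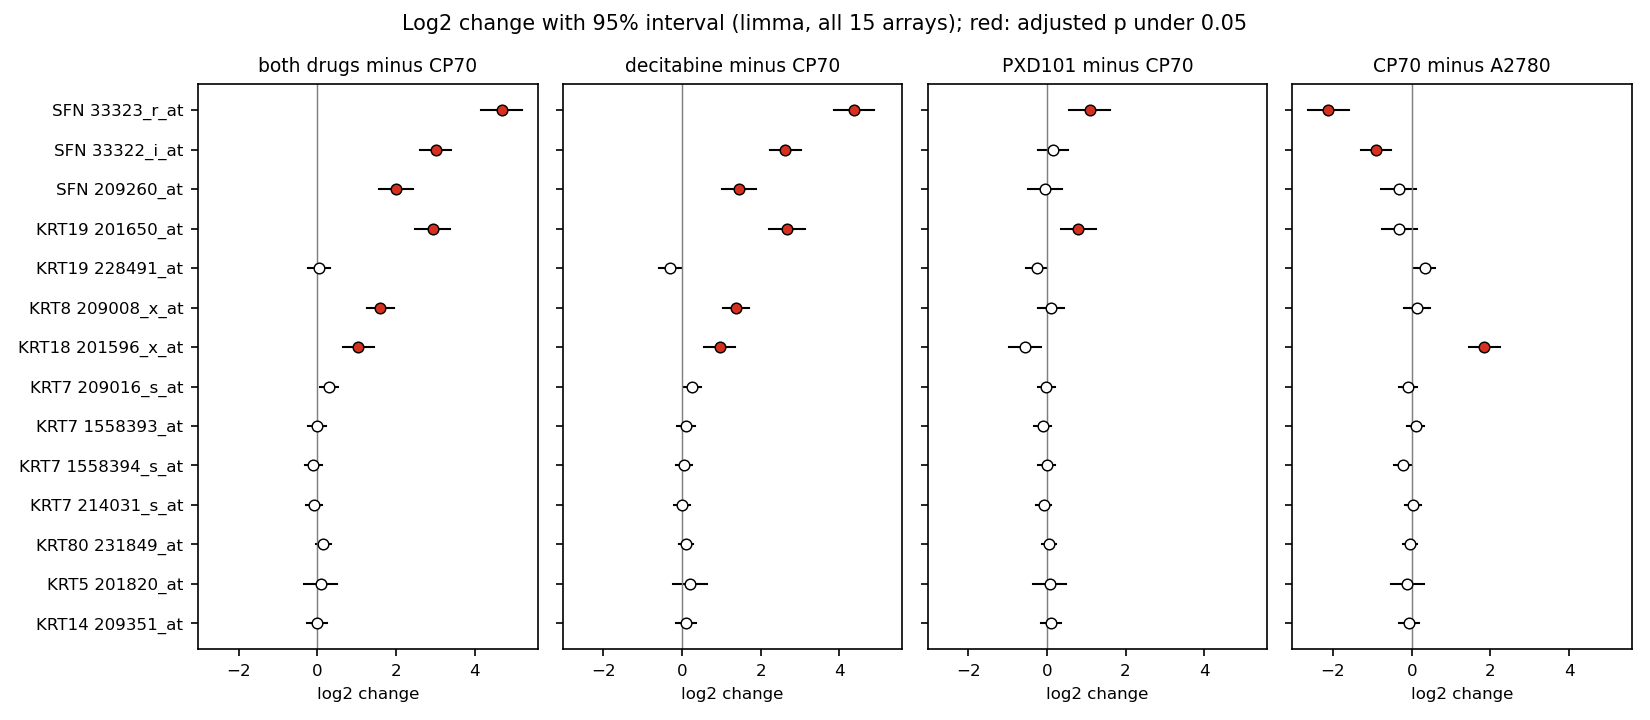
Log2 change with its 95% interval for the 14 member probe sets, for both drugs, decitabine and PXD101 each minus untreated CP70, and for CP70 minus A2780 (limma, 15 arrays), with filled red points where the adjusted p was under 0.05. The SFN points, KRT19 201650_at, KRT8 and KRT18 lie right of 0 with both drugs and with decitabine, KRT18 lies right of 0 and 2 SFN probe sets left of 0 in the line contrast, and the KRT7, KRT80, KRT5 and KRT14 points stay near 0.

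PXD101 alone shifted few of these probe sets. KRT19 (201650_at) rose by 0.80 ± 0.21 over untreated CP70 (1.74-fold, limma adjusted p = 0.0418) and SFN 33323_r_at by 1.08 ± 0.24 (2.12-fold, adjusted p = 0.0279), and their PXD101 arrays all lay above the untreated ones. The other SFN probe sets changed by 0.15 ± 0.18 (33322_i_at) and -0.06 ± 0.20 (209260_at) and KRT8 by 0.11 ± 0.16, with limma adjusted p of 0.707, 0.92 and 0.777. KRT18 changed by -0.56 ± 0.19 (limma adjusted p = 0.0852), with its PXD101 and untreated arrays apart. In all, 2 of 14 probe sets were called higher and 0 lower, where 3% of all probe sets were called higher and 2.92% lower. 1 member was lower at an unadjusted limma p under 0.05, and rank product called 1 higher and 0 lower. Both calls, and those of all other probe sets (0 of 54613 called), were lost on leaving out CP70 replicate 1 or 3, or any 1 PXD101 array. Without CP70 replicate 2, by contrast, 3 were called: KRT19 1.00 ± 0.21, SFN 33323_r_at 1.27 ± 0.25 and KRT18 lower, with a change of -0.74 ± 0.18 (limma adjusted p = 0.00231, 0.00161 and 0.00691). These 3 of 14 stand beside 11.3% of all probe sets called higher and 8.83% lower in that fit, so the count is near the overall share. In untreated CP70, KRT18 was 9.19 in replicate 2, against 9.78 and 9.70 in the others.

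Between both drugs and decitabine alone, 0 of 14 member probe sets were called, where 0.00366% of all probe sets (2 probe sets) were called higher and 0% lower. At an unadjusted limma p under 0.05, 3 were higher and 0 lower, and rank product called 0. SFN differed by 0.56 in 209260_at (95% interval 0.12 to 0.99, limma adjusted p = 0.848) and by 0.39 in 33322_i_at (0.0012 to 0.78, adjusted p = 0.903). KRT19 differed by 0.36 in 228491_at (0.085 to 0.63, limma adjusted p = 0.833) and by 0.27 in 201650_at (-0.18 to 0.72). The difference was 0.23 for KRT8 (-0.10 to 0.57) and 0.08 for KRT18 (-0.31 to 0.48). A non-additive response, what remains of the change with both drugs once the change with decitabine and that with PXD101 are subtracted, was called for 0 members, where 0.0146% of all probe sets (8 probe sets) were called higher and 0% lower. At an unadjusted limma p under 0.05, 2 were higher (KRT18 by 0.64 ± 0.26 and KRT19 228491_at by 0.62 ± 0.18) and 1 lower (SFN 33323_r_at, -0.76 ± 0.34), and rank product was not run on this contrast. Without CP70 replicate 2, KRT18 was the 1 member of 14 called, at 0.82 ± 0.24 (limma adjusted p = 0.0325), in a fit that called 6.25% of all probe sets higher and 6.91% lower. The unequal PXD101 exposure enters this contrast.

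Between the lines, CP70 had more KRT18 and less SFN than A2780, while KRT8 and KRT19 did not pass the test. KRT18 was higher in CP70 by 1.84 ± 0.19 (3.59-fold, limma adjusted p = 2.09e-06), and all 3 CP70 arrays lay above all A2780 arrays. SFN was lower in CP70 by 2 of its probe sets, with changes of -2.12 ± 0.24 in 33323_r_at (adjusted p = 8.48e-06) and -0.91 ± 0.18 in 33322_i_at (adjusted p = 0.00151) from limma, again without overlap of the arrays. The third, 209260_at, changed by -0.33 ± 0.20 (limma adjusted p = 0.294). KRT8 changed by 0.14 ± 0.16 and KRT19 by -0.31 ± 0.21, with limma adjusted p of 0.625 and 0.351. Of the 14 probe sets, 1 was called higher and 2 lower, where 11.5% of all probe sets were called higher and 12.5% lower, and rank product called 1 higher and 1 lower. The same 3 were called without CP70 replicate 2, at 2.03 ± 0.18 for KRT18 and -2.31 ± 0.25 and -1.05 ± 0.19 for SFN. With CP70 replicate 2 as the single untreated CP70 array, SFN 33322_i_at changed by -0.64 and was not called (limma adjusted p = 0.123), in a fit where 1 array stood for the group and its spread was taken from the other groups. Whether KRT18 and KRT8 differed in their line contrast was not tested.

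Most other keratins lay below the median probe set. Over the leading probe sets (that with the highest mean of each gene) of 21 other type I keratins, limma called 0 with decitabine, and 2 passed an unadjusted p under 0.05. Of 16 other type II keratins it called 0, with 1 at an unadjusted p under 0.05. Of all probe sets, 2.91% were called higher and 2.65% lower, so counts of 0 in lists of this size are near the overall share. Rank product called 0 in both lists. Together with the 7 member keratins these made 44 keratin genes, and in untreated CP70 30 of the 37 others lay below the median probe set. The changes of these 37 with decitabine ran from -0.32 ± 0.19 (KRT10, a suprabasal keratin of the epidermis, limma adjusted p = 0.397) to 0.57 ± 0.17 (KRT13, the keratin of internal stratified epithelia, adjusted p = 0.0586). With CP70 replicate 2 left out, limma called KRT13 higher at 0.65 ± 0.18 (adjusted p = 0.0217) and KRT10 lower at -0.63 ± 0.12 (adjusted p = 0.00163). That fit called 8.3% of all probe sets higher and 7.47% lower.

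**Figure D4:**
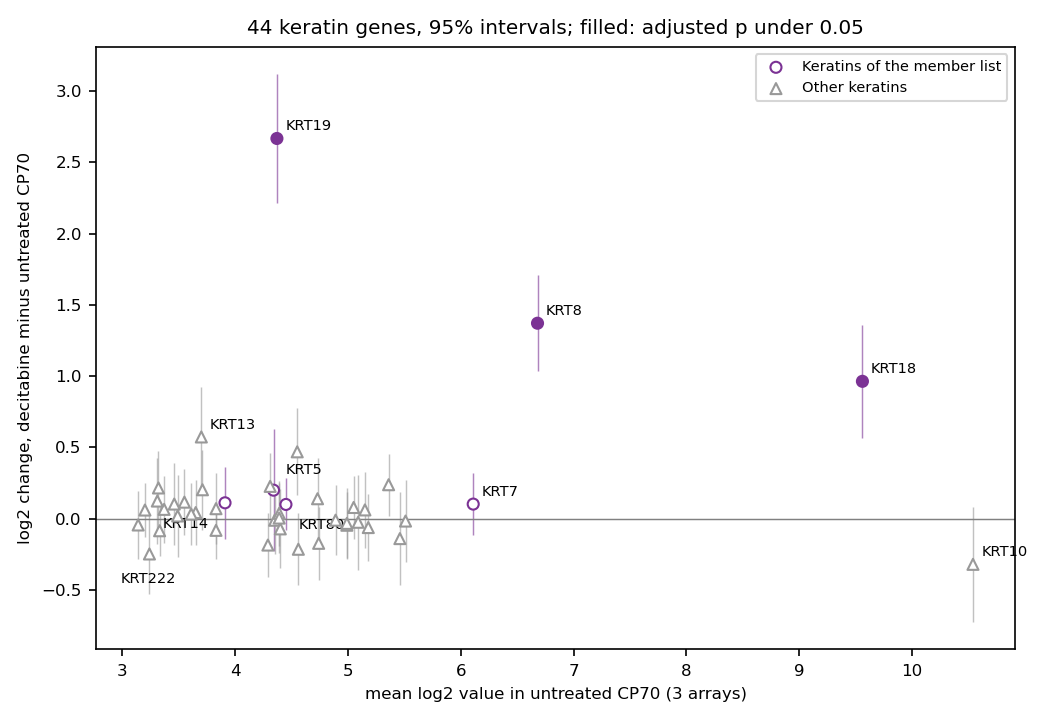
Log2 change of decitabine minus untreated CP70 with its 95% interval, against the mean log2 value in untreated CP70 (3 arrays), for the leading probe sets of 44 keratin genes (7 members as circles, 37 others as triangles, filled where the limma adjusted p was under 0.05). KRT19, KRT8 and KRT18 stand above the rest, and the 37 others lie between -0.32 and 0.57.

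With both drugs, 2 of the 21 other type I keratins were called higher and 0 lower, where 3.95% of all probe sets were called higher and 3.07% lower. KRT13 read 4.25, 4.98 and 4.74 log2 with both drugs, against 3.57, 3.86 and 3.68 in untreated CP70, a rise of 0.95 ± 0.17 (limma adjusted p = 0.00237). KRT12, a keratin of the cornea, rose by 0.48 ± 0.12 (adjusted p = 0.0264, limma) but reached no more than 3.95 log2. With PXD101, KRT10 read 9.78, 9.77 and 9.73 log2, against 10.88, 9.93 and 10.82 in untreated CP70, a fall of 0.79 ± 0.19 (log2 change -0.79, limma adjusted p = 0.0331; -1.09 ± 0.12 without CP70 replicate 2), and it was higher in CP70 than in A2780 by 1.09 ± 0.19 (adjusted p = 0.000487). KRT222, a keratin-like gene, was lower in CP70 than in A2780, at -3.15 ± 0.13 (limma adjusted p = 6.14e-11; -3.30 ± 0.12 without CP70 replicate 2). Rank product called 0 of the 21 with both drugs and 0 with PXD101. With CP70 replicate 2 left out, KRT10 was also lower with both drugs, at -0.75 ± 0.12 (limma adjusted p = 0.000327).

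Proteins that anchor keratin filaments made up a further list. Of 19 linkers, desmosome components and keratin-binding proteins, 2 were called higher and 0 lower with decitabine. These were PKP3 (plakophilin, a desmosomal plaque protein), by 0.89 ± 0.18 (limma adjusted p = 0.00876), and PPL (periplakin, a plakin linker), by 0.74 ± 0.16 (adjusted p = 0.0143). PPL reached no more than 4.88 log2 on any array, below the median probe set. With both drugs 3 were higher and 0 lower, PPL at 0.82 ± 0.16, PKP3 at 0.80 ± 0.18 and JUP (plakoglobin) at 0.68 ± 0.19 (limma adjusted p = 0.00581, 0.0134 and 0.0449). The median changes of the 19 were 0.20 with decitabine and -0.009 with both drugs, and rank product called 0 in either. Leaving out CP70 replicate 2 gave 7 higher and 0 lower with decitabine, and 5 higher and 1 lower with both drugs, where calls over all probe sets went up as well, to 8610 with decitabine (3038 with all arrays) and 9213 with both drugs (3832). With PXD101, 2 were higher (JUP at 0.84 ± 0.19, limma adjusted p = 0.0288, and TCHP) and 0 lower, or 5 and 2 without that array. Between CP70 and A2780, 4 were higher and 1 lower (4 and 2 without that array), where 11.5% of all probe sets were called higher and 12.5% lower. Among the higher were the desmosomal cadherins DSG2 at 4.71 ± 0.11 and DSC2 at 1.38 ± 0.18 (limma adjusted p = 5.18e-14 and 2.58e-05). DSG2 read 8.96, 9.12 and 9.13 log2 in untreated CP70, against 4.19, 4.44 and 4.45 in A2780.

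Among 20 transcription factors and splicing regulators of epithelial genes, 2 were called higher and 1 lower with decitabine. ELF3, an ETS factor of epithelia, rose by 0.61 ± 0.12 (limma adjusted p = 0.00787) and FOSL1, a subunit of AP-1, by 0.84 ± 0.23 (adjusted p = 0.0471). The splicing regulator ESRP1 was lower, at -1.86 ± 0.49 (limma adjusted p = 0.0398), with untreated CP70 arrays spread over 8.46, 5.58 and 7.97 log2, and at -2.74 ± 0.21 without CP70 replicate 2. With PXD101 alone 0 were higher and 2 lower, ESRP1 at -2.85 ± 0.49 and KLF4 at -2.77 ± 0.50 (limma adjusted p = 0.0233 for each), or 0 and 7 without that array, and rank product called 0 higher and 5 lower. With both drugs 2 were higher (ELF3 by 0.76 ± 0.12, FOSL1 by 1.29 ± 0.23) and 2 lower, with limma adjusted p of 0.00129 and 0.00316 for the rises. Rank product called 0 higher and 2 lower with decitabine and 1 higher and 2 lower with both drugs, and the median changes of the 20 were 0.12 and -0.06. When CP70 replicate 2 was left out, the counts were 1 higher and 3 lower with decitabine, FOSL1 no longer being called (limma adjusted p = 0.0575), and 2 higher and 4 lower with both drugs. Between CP70 and A2780, 9 were higher and 2 lower (10 and 2 without that array), where 11.5% of all probe sets were called higher and 12.5% lower. Among the higher were TFAP2A at 5.08 ± 0.24, KLF5 at 4.15 ± 0.36 and KLF4 at 3.86 ± 0.50 (limma adjusted p = 2.4e-10, 3.87e-07 and 2.81e-05). TFAP2A read 9.09, 8.99 and 9.64 log2 in untreated CP70, against 4.07, 4.39 and 4.02 in A2780.

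Of the other 14-3-3 genes none was called higher with either decitabine treatment. Of all probe sets, 2.91% were called higher with decitabine and 3.95% with both drugs, so a count of 0 among 6 genes is near the overall share. Of 6 family members (YWHAB, YWHAE, YWHAG, YWHAH, YWHAQ, YWHAZ), 0 were called higher and 1 lower with decitabine, YWHAE at -0.44 ± 0.12 (limma adjusted p = 0.0479). It was not called without CP70 replicate 2 (-0.34 ± 0.12, adjusted p = 0.0841, limma), where YWHAB was lower instead. With both drugs 0 were called by limma (2 at an unadjusted p under 0.05), and when that array was left out YWHAB and YWHAZ were called lower. Rank product called 0 in both contrasts. The array means over the 6 genes lay between 11.87 and 11.91 log2 with both drugs, 11.83 and 11.88 with decitabine, 11.83 and 11.88 with PXD101, 11.96 and 12.03 in untreated CP70 and 11.76 and 11.84 in A2780.

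Of 15 regulators and partners of SFN, 1 was called higher and 1 lower with decitabine. CDKN1A (p21, a cyclin-dependent kinase inhibitor) read 10.51, 10.73 and 10.47 log2 with decitabine, against 9.91, 9.10 and 9.95 in untreated CP70, a rise of 0.92 ± 0.21 (limma adjusted p = 0.0198). TRIM25, an E3 ligase that targets SFN for degradation, was lower at -0.54 ± 0.14 (limma adjusted p = 0.0372). With both drugs 2 were higher and 1 lower, with CDKN1A at 0.93 ± 0.21, CDK2 at 0.74 ± 0.20 and TRIM25 at -0.64 ± 0.14 (limma adjusted p = 0.0153, 0.0407 and 0.0119). Rank product called 0 in either contrast, and the median changes of the 15 were 0.17 and 0.22. Where CP70 replicate 2 was left out, 6 were higher and 1 lower with decitabine and 7 higher and 1 lower with both drugs, beside the same growth in calls over all probe sets, to 8610 and 9213. With PXD101, 3 were higher and 2 lower, CDKN1A at -0.79 ± 0.21 among the lower (limma adjusted p = 0.0444), or 6 and 4 without that array. Between CP70 and A2780, 5 were higher and 2 lower (5 and 4 without that array), where 11.5% of all probe sets were called higher and 12.5% lower. TRIM25 was at 1.19 ± 0.14 and CDKN1A, like SFN, lower in CP70 at -0.95 ± 0.21 (limma adjusted p = 1.32e-05 and 0.00375).

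Epithelial markers rose in part. Of 7 epithelial markers, 4 rose and 0 fell with decitabine, and 5 rose and 0 fell with both drugs, with median changes of 0.61 and 0.64, and these counts were the same without CP70 replicate 2. Rank product called 1 higher and 0 lower in each. CLDN7, a tight-junction claudin, read 7.83, 8.51 and 8.65 log2 with both drugs and 7.94, 8.42 and 7.52 with decitabine, against 5.34, 5.43 and 5.83 in untreated CP70. Its rise was 2.79 ± 0.26 with both drugs and 2.42 ± 0.26 with decitabine (limma adjusted p = 5.82e-06 and 3.28e-05). MUC1, an epithelial mucin, rose by 0.69 ± 0.13 with decitabine and EPCAM by 0.71 ± 0.18 (limma adjusted p = 0.0053 and 0.0335). Of 13 squamous and basal markers, 1 rose and 0 fell with decitabine: S100A2 read 12.49, 12.82 and 12.91 log2 with decitabine, against 10.93, 11.35 and 10.91 in untreated CP70, a rise of 1.68 ± 0.27 (limma adjusted p = 0.0018). With both drugs 2 rose (S100A2 by 1.84 ± 0.27, and KRT13 above) and 0 fell, and the median changes of the 13 were 0.065 and -0.045. Rank product called 1 higher and 0 lower in each, and the counts without CP70 replicate 2 were 3 and 2 higher, with 0 lower.

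Markers of other cell types were followed as well. Of 10 fibroblast and mesenchymal markers, 1 was higher (THY1) and 2 lower (FN1 and CDH2) with decitabine, and 0 higher and 3 lower with both drugs. FN1 (fibronectin) was at -0.94 ± 0.22 with decitabine and -1.07 ± 0.22 with both drugs, and CDH2 (N-cadherin) at -0.50 ± 0.11 and -0.60 ± 0.11 (limma adjusted p between 0.00474 and 0.0224). Rank product called 0 of the 10 with decitabine and 1 lower with both drugs. The counts without CP70 replicate 2 were 1 higher and 3 lower with decitabine and 1 higher and 4 lower with both drugs. Of 6 leukocyte markers, TYROBP, an adaptor of immune receptors, was higher with decitabine (1.30 ± 0.24) and with both drugs (1.17 ± 0.24, limma adjusted p = 0.00457 and 0.00739), and 0 were lower, while 4 of the 6 lay below the median probe set in each of the 5 groups. In the fit without CP70 replicate 2, 1 was higher with decitabine and 2 with both drugs (TYROBP and CD14), and 0 were lower. With PXD101 and between the lines limma called 0 of the 6, with 0 at an unadjusted p under 0.05, and rank product 0. Of 4 endothelial and 5 ovarian cancer and mullerian markers limma called 0 in the 3 contrasts of treated with untreated CP70 and in the line contrast, with 0 at an unadjusted p under 0.05, and rank product 0.

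For the 6 probe sets of KRT8, KRT18, KRT19 and SFN called with decitabine, Pearson's r over the 15 arrays ran from 0.564 (KRT18 and SFN 33323_r_at) to 0.983. It was 0.853 between KRT8 and KRT18, 0.957 between KRT19 (201650_at) and KRT8, 0.931 between KRT8 and SFN (33322_i_at) and 0.932 between KRT19 and SFN. The points share groups, and for the deviations from the group means r was 0.603, 0.395, 0.674 and 0.427 in the same order. KRT18 and KRT19 correlated at 0.761 and, as deviations, at 0.035, KRT18 and SFN 33322_i_at at 0.656 and 0.416, and KRT19 and SFN 209260_at at 0.899 and 0.105. Within SFN, 33322_i_at and 33323_r_at correlated at 0.983 and, as deviations, at 0.929, whereas 209260_at and 33322_i_at correlated at 0.948 and 0.213. The probe sets of KRT5, KRT7, KRT14 and KRT80 were not included, nor was KRT19 228491_at, which was not called with decitabine. The 6 were chosen by their rise with decitabine in these same arrays, so a positive r over the 15 arrays was in part built in. All are descriptions over 15 arrays in which points share a group.

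Among 2865 other genes whose group means ranged over at least 1 log2 unit, the 5 closest to each of 3 members by Pearson's r over the same 15 arrays were named. Closest to KRT19 were MT1E (0.978), CSRP1 (0.974), FAM9C (0.970), VCX2 (0.963) and FBP1 (0.959), which include a metallothionein (MT1E), a LIM-domain protein (CSRP1) and a gluconeogenic enzyme (FBP1). Closest to KRT8 were FAM131B-AS2 (0.978), FAM9C (0.977), PNLDC1 (0.977), FMR1NB (0.976) and MAGEB1 (0.975), and closest to SFN were ASMTL (0.988), MAGEB2 (0.981), LGALS3 (0.980), ASB2 (0.978) and CCL5 (0.976). MAGEB1 and MAGEB2 are cancer-testis antigens normally restricted to the germ line, LGALS3 encodes a galectin and CCL5 a chemokine. LGALS3 averaged 10.57 log2 with both drugs, 10.64 with decitabine, 7.78 with PXD101, 7.65 in untreated CP70 and 8.25 in A2780. MAGEB2 averaged 8.31, 8.32, 3.63, 3.55 and 4.47 log2 in the same groups. Both profiles share with SFN the high decitabine groups and an A2780 mean above that of untreated CP70. Both genes were picked by their correlation with SFN over these arrays, so this likeness was built in by the choice.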

How the data were processed

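RNA from 15 cultures of 2 cell lines was measured on Affymetrix expression arrays. Per the labels' protocols, RNA was extracted on Qiagen columns, amplified with a NuGEN WT-Ovation Pico kit and biotin-labelled. The authors deposited 1 table of log2 values for 54675 probe sets. R 2.10.1 and affy are named in the submitters' processing notes, and how background, normalization and summarization were handled is not given in the sources used here. That the deposited values are log2 follows from their range. Arrays give no depth, and their number limits the precision.

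Symbols came from the platform annotation, updated through Entrez IDs: 41097 probe sets had 1 symbol, 1801 several and 11777 none in the table used here. After removal of 62 control probe sets, each of the 54613 others was fitted with limma 3.58.1 (lmFit, eBayes, R 4.3.3) on the group means of all 15 arrays, without a replicate term, and adjusted by Benjamini-Hochberg per contrast, for 9 contrasts. Rank product, the test that the series' design text names, was run on 9 pairwise array differences with 100 permutations at under 5% false positives (Python 3.11.15). A gene's leading probe set has the highest mean over the 15 arrays. The fit was tested on simulated data with independent noise on every array. These held no array standing apart as CP70 replicate 2 did, so the simulation does not cover that case.

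The members, lists and alternatives were chosen with earlier results of these data known. Of 152 listed genes, 137 were analysed and 15 had no probe set named for them in the table used here. Full array values are given for members whose leading probe set was called in any of the first 4 contrasts, and of each list up to 4 called genes with the smallest p could be named. List genes named for PXD101 alone or only without CP70 replicate 2 were chosen after their values were seen. Replicate numbers came from the titles.

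The alternatives were a replicate block, each array left out, CP70 replicate 2 as the only untreated CP70 array, only the arrays compared, array weights, 1 probe set per gene, the mean of a gene's probe sets, probe sets above the median level, repeated quantile normalization, median centring, a change of at least 2-fold, and rank product. List counts without CP70 replicate 2 and by rank product were added after the data were seen. Gene spans and promoters are from RefSeq (GRCh38.p14), and no genome build is named in the files.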

Additional observations from a re-analysis of the deposited data

How the results depend on the processing

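The 35 called member changes gave 483 values under the alternatives, of which 466 kept their direction and their side of the threshold, 17 kept the direction only and 0 reversed. With the replicate block, the counts of called member probe sets stayed at 6 with decitabine, 6 with both drugs, 2 with PXD101, 3 between the lines, and 0 for the non-additive response. Same-numbered arrays did not deviate together, since no pair of groups had all 3 correlations of deviations over 0.1. For PXD101 against untreated CP70 the count of 2 became 1 with 1 probe set per gene, 1 at a change of at least 2-fold, 1 by rank product, 0 with only the arrays compared, 0 with CP70 replicate 2 as the only untreated array (without CP70 replicates 1 and 3), and 0 to 3 on leaving out 1 array. The mean of both KRT19 probe sets changed by 0.27 with PXD101 (limma adjusted p = 0.214). For the non-additive response the count of 0 became 2 with array weights and 0 to 1 on leaving out 1 array, the 1 being KRT18 without CP70 replicate 2. KRT18 with decitabine lost its call with only the arrays compared (0.96, limma adjusted p = 0.0724). The cause of these changes was not tested, beyond the fewer arrays in the fits that leave arrays out.

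Over all probe sets, leaving out CP70 replicate 2 moved the calls of decitabine against untreated CP70 to 8610 (3038 with all arrays), of PXD101 to 10973 (3235), of both drugs to 9213 (3832) and of the non-additive response to 7191 (8). With array weights these were 9526, 14166, 12980 and 7648. The replicate block gave 1342 calls for PXD101 against 3235. With only the arrays compared, or without CP70 replicate 1, CP70 replicate 3 or any 1 PXD101 array, PXD101 had 0 calls. The limma calls of list genes with PXD101 were thus lost in these fits as well.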
